A study of Mus musculus with 4 samples.

Results

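Tsc22d1, Tsc22d2 and Tsc22d4 are the autosomal mouse genes of the TSC22 domain family, and they are described here by the chromatin interactions that touched them in a list from YAP-M tumor. The members were selected on the list itself: an interaction was taken when either of its anchors, all bins of 10 kb, overlapped the gene body or 2.5 kb around either end of the gene. Together, 159 of the 99041 listed interactions met this rule, 108 at Tsc22d1, 35 at Tsc22d4 and 16 at Tsc22d2. The 3 genes lie on different chromosomes, so an interaction within 1 chromosome could touch only 1 of them. Because these counts chose the members, they are a description and carry no test.

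The study used H3K27ac HiChIP, in which chromatin fragments that lie close together in the nucleus are joined and then enriched for the acetylated histone of active promoters and enhancers. Its labels give 2 libraries of mouse brain tumor with the YAP-M fusion, a fusion of YAP1 with MAMLD1, and 2 libraries of cultured wild-type neural stem cells, labelled neural progenitor cells and kept with EGF, basic FGF and heparin. The titles of the libraries name H3K27ac ChIP-seq and not HiChIP. The labels name neither the promoter that drives the fusion nor the number or age of the animals, and every library received the same H3K27ac antibody. The list was read as that of the tumor from the letters YM in its name; it names no library and has no count or score per interaction, so depth is unknown, no value has a replicate error, and tumor could not be set against neural stem cells. All interactions lay within an autosome, between 20 and 1000 kb apart with a median of 180 kb. The tumor label was set beside marker genes in the same list: all 7 neural stem and radial glia markers had an interaction (median 26), as did 4 of 5 ependymal markers (median 9), 3 of 4 neuronal markers (median 1.5), all 6 microglial markers (median 7), all 5 oligodendrocyte markers (median 8) and all 4 endothelial markers (median 9.5); Pifo and Tubb3 had 0. Over all autosomal coding genes, 67.8% had an interaction and the median was 3. The part of other cell types in the contacts below was not tested. A bulk list cannot tell fewer cells with a contact from a weaker contact in each cell.

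Proteins of this family share a short conserved region, the TSC box, followed by a leucine zipper through which they pair with each other. Several of the genes give long and short proteins from separate transcription starts. Tsc22d1 was first found as a gene induced by TGF-beta, and Tsc22d3, also called Gilz, is a classical glucocorticoid target. Long family proteins bind the pseudokinase NRBP1 and act with the WNK kinases in the control of cell volume. Tsc22d3 lies on chromosome X, where the list held 0 interactions, so it could not be scored.

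The starts of Tsc22d1 matter for what follows, since the bins of its first and last starts had partners on opposite sides. RefSeq places Tsc22d1 on chromosome 14 from 76414961 to 76507765 (GRCm38.p6, the assembly of mm10, plus strand). Of the 3 genes, 1 matched the RefSeq promoter table, Tsc22d1, with 5 starts in 3 bins. The first and second starts, at 76414961 and 76415821, share the bin from 76410001 to 76420000, and the last pair, at 76504226 and 76504510, share the bin from 76500001 to 76510000, about 89.5 kb further along. The middle start, at 76488436, lies between them. The 250 bases before the first, second and last starts are shown, from the bins that had opposite partners. The start at 76504226 shares the bin of the last start, but its stretch is only described below. Capitals mark matches, on either strand, to the TEAD motif GGAATG, the AP-1 motif TGANTCA, the NFI core TTGGC, the FoxO motif GTAAACA, the TATA box TATAAA and the GC box GGGCGG.
Tsc22d1 first start, chr14:76414711-76414960, plus strand: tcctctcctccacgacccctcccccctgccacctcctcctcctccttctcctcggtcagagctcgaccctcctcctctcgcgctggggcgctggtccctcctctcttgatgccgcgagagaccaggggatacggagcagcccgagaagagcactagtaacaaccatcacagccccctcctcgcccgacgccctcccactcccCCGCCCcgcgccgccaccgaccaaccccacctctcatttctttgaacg
Tsc22d1 second start, chr14:76415571-76415820, plus strand: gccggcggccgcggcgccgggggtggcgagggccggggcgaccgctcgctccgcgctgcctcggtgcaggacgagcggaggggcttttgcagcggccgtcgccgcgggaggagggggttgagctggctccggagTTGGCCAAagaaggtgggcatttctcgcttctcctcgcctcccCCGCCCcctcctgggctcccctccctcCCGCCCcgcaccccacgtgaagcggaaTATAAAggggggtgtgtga
Tsc22d1 last start, chr14:76504260-76504509, plus strand: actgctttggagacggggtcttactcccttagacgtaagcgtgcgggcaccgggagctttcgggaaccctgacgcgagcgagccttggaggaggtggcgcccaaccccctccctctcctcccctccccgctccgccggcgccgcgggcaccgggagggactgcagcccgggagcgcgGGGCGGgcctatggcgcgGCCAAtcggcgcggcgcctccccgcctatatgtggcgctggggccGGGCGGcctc

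All 3 of these stretches were rich in G and C, with 66.8, 73.6 and 74.0%, against a median of 56.0% over the 20085 promoter windows of autosomal coding genes in the same table. The stretch before the start at 76504226 had 46.0% and that before the middle one had 54.4%, and neither held a match to any of the listed motifs. GC boxes numbered 1, 2 and 2 before the first, second and last starts. The second start also had a TATA box and a pair of NFI cores on opposite strands that overlap by 2 bases and are printed as 1 run of capitals, and the last start had 1 NFI core. Over all windows of this length, 43.4% held a GC box, 43.1% an NFI core, 11.7% a TATA box, 11.5% the TEAD motif, 6.18% the AP-1 motif and 2.64% the FoxO motif. The letters of the TEAD, AP-1 and FoxO motifs were not in any of the 5 windows of Tsc22d1. A match is a string of letters and not a measured binding site.

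Tsc22d1 was among the most connected genes in the list. Its 108 interactions placed it at rank 31 of 20665 autosomal coding genes, and 0.165% of these had at least as many; 67.8% had at least 1, the median was 3 and the upper quartile 9. Longer genes cover more bins and so can hold more interactions. Among the 3991 coding genes of 0.5 to 2 times its 92.8 kb, the median was 7 and 10 genes, Tsc22d1 included, had at least as many. Per bin, Tsc22d1 had 9.82 interactions against a median of 0.667, at rank 338. No coding gene within 1000 kb had as many. The 14 neighbours had a median of 8, and the highest was 56 at Enox1.

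The interactions of Tsc22d1 came mostly from a few bins at its starts and at a site inside the gene. The bin of the first and second starts had 15 interactions, all with lower coordinates, from 100 to 310 kb away. The bin of the last pair of starts had 45, of which 44 went to higher coordinates, from 60 to 530 kb away. Within 1 gene, therefore, the bin of the upstream starts was joined to one flank and that of the downstream starts to the other. The latter bin also holds the end of the gene, at 76507765, so its interactions cannot be assigned to the starts. The bins shared 1 partner, the bin from 76150001 to 76160000, which is 6.67% of the partners of the first and 2.22% of those of the last. By number of interactions the bin of the last starts ranked 39 among 56427 anchors, and 0.0744% of anchors had at least as many; the bin of the first starts was among the top 2.51%, and the median anchor had 2. The bin of the middle start, from 76480001 to 76490000, had 1 interaction, so an annotated start alone did not mark a connected bin.

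Another bin, inside the gene from 76470001 to 76480000, had partners on both flanks, 9 lower and 11 higher, although no annotated start lay in it. It reached 380 kb on the lower side and 560 kb on the higher side, the longest interaction of the gene. Of its 20 partners, 6 were also partners of the first start bin (30% of the 20, 40% of the 15) and 12 were partners of the last start bin (60% of the 20, 26.7% of the 45). The bin just past the gene end, from 76510001 to 76520000, had 17 interactions, all of them with partners of the last start bin beside it. That bin counts through only 265 bases of the 2.5 kb window; without a window Tsc22d1 had 91 interactions. The next bin, outside the rule, had 10. The 7 other bins of the gene had 11 interactions in all.

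**Figure D1:**
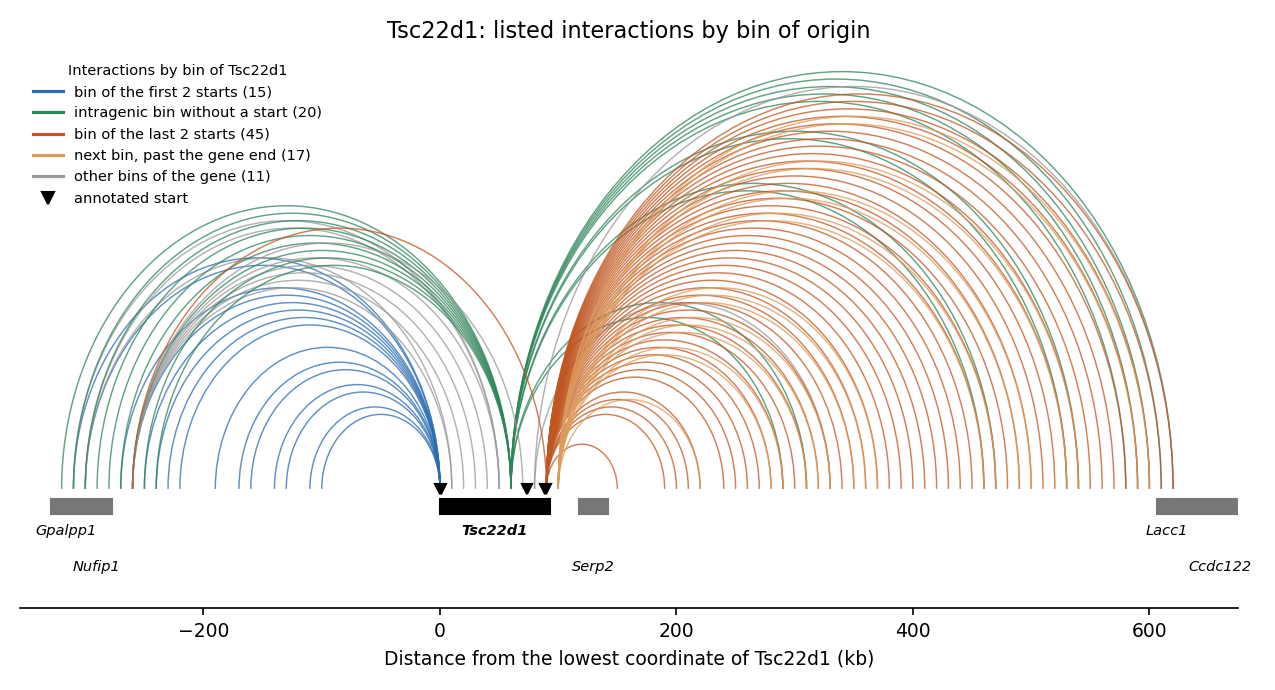
Each arc joins the middle of a bin of Tsc22d1 to the middle of its partner bin, with the distance from the lowest coordinate of the gene in kb on the horizontal axis, colours for the bin of origin and triangles for the annotated starts, some of which overlap; arc height only follows the distance. The 15 arcs of the first start bin all fall to the left and 44 of the 45 arcs of the last start bin to the right.

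On the higher side the partners of Tsc22d1 formed a nearly unbroken stretch. They filled 44 of the 48 bins from 76560001 to 77040000, with 39 in a row from 76650001. The stretch ended at Lacc1, an enzyme gene of purine metabolism studied in macrophages, and Ccdc122, whose starts share the bin from 77030001 to 77040000. In all, 3 bins of Tsc22d1 were joined to that bin, at 530 to 560 kb. Ends of other coding genes fell in only 3 of the 44 partner bins, and 24 were joined to a single bin of Tsc22d1. The stretch thus lay almost entirely between coding genes, with the lncRNA genes 1700105F02Rik, 1700108F19Rik, Gm30246 and Gm30365 among those it covers.

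Serp2, a gene of a small protein of the endoplasmic reticulum, lies 25 kb past the end of Tsc22d1 and was passed over. No interaction touched both genes, and all 74 interactions of Tsc22d1 to higher coordinates ended beyond Serp2. Serp2 had 26 interactions of its own, and 92 crossed it without touching it. Its 20 partner bins were all partner bins of Tsc22d1 as well, which is 100% of those of Serp2 and 32.3% of the 62 of Tsc22d1. Since the partners of Tsc22d1 filled 44 of the 48 bins from 76560001 to 77040000, nearly any partner in that stretch would be shared. The shared bins were described after their overlap was seen, and bins so close to each other can hold parts of the same contact.

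On the lower side Tsc22d1 had 34 interactions, with 18 partner bins from 76090001 to 76320000. These interactions were 31.5% of its total (exact Clopper-Pearson 95% interval 22.9 to 41.1%, counting error only). The interval takes neighbouring interactions as independent, which they are not, so it is too narrow. A single bin from 76150001 to 76160000 stood out: it was joined to 9 of the 11 bins of Tsc22d1, more than any other partner, and had 28 interactions in all. It held no coding-gene end and no annotated start. Beyond it lay Nufip1, which encodes a factor in the assembly of small nucleolar RNA particles, with 8 interactions between bins at its ends and Tsc22d1. Gpalpp1 lay there as well, with 7, all in bins that also hold an end of Nufip1 and so all among those 8.

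Interactions that spanned Tsc22d1 without touching it numbered 8, against a median of 1 over all coding genes and of 3 over those with an interaction; 23.1% of coding genes had at least as many. Each of the 8 joined a lower partner bin of Tsc22d1 to a higher one, at 850 to 920 kb. Their lower anchors lay between 76110001 and 76180000 and their higher anchors between 77000001 and 77040000, the Lacc1 end of the stretch. Of the 8, 4 came from the bin from 76150001, and the lowest partner bins of Tsc22d1, from 76090001 and 76100001, took part in none. Among all pairs of partner bins of Tsc22d1 that lay 20 to 1000 kb apart, 71 of 1837 were listed (3.86%). The shares were 25.6% (11 of 43) at Tsc22d2 and 23.7% (14 of 59) at Tsc22d4, whose partner bins were fewer.

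The opposite partners of the upstream and downstream start bins were set beside those of other genes. The same description was made for every coding gene with annotated starts at least 50 kb apart whose outermost start bins each had at least 10 interactions. These limits were chosen after Tsc22d1 was seen. There were 9 such genes. In 4 of them, or 44.4%, at least 90% of the interactions of each start bin led away from the other start: Tsc22d1, Akap7, Fbxw7 and Pik3r1. In 2, Foxp1 and Maml2, at most 10% of the interactions of each start bin led away, and the others led towards the other start. Cmip (0 and 16.7% away) and Creb5 (0 and 29.4%) missed that limit but also led mainly towards the other start. Runx1 was mixed, with 6.67 and 77.3% away. The outward arrangement was thus not particular to Tsc22d1. Among them the last start bin of Tsc22d1, with 45 interactions, had more than any other outermost start bin but the low-coordinate one of Runx1, with 60.

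**Figure D2:**
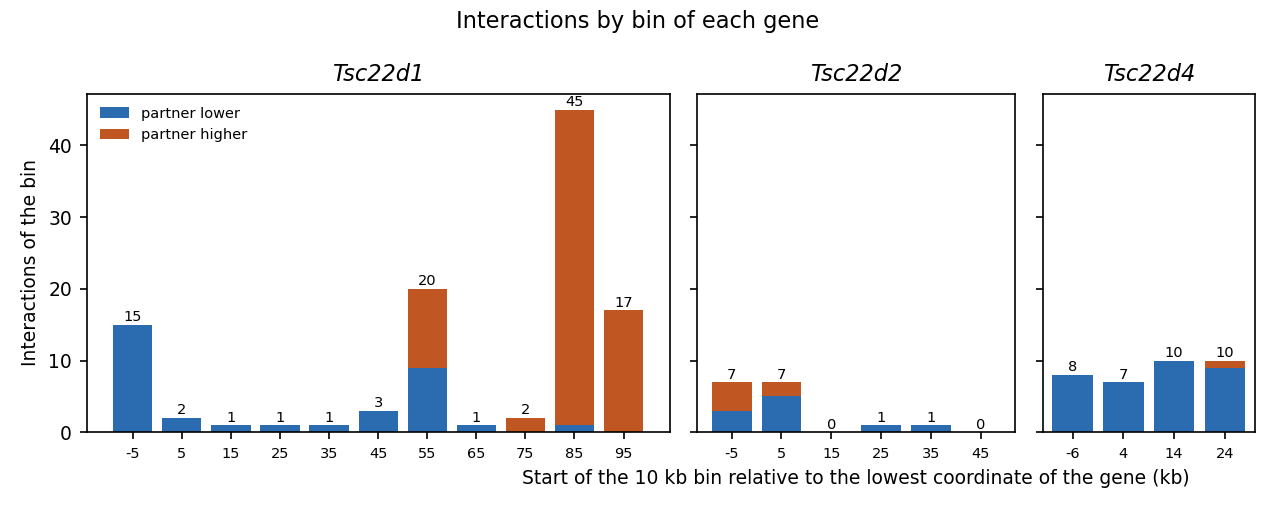
Bars give the number of listed interactions of each 10 kb bin of Tsc22d1, Tsc22d2 and Tsc22d4, split by whether the partner lay at lower or higher coordinates, with the start of the bin relative to the lowest coordinate of the gene in kb below. Tsc22d1 has 3 tall groups of bars with different sides, whereas the bins of Tsc22d4 have 7 to 10 interactions each, nearly all lower.

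Tsc22d4, a family member known for its part in liver lipid metabolism, was the second most connected, and its interactions were local and one-sided. RefSeq places it on chromosome 5 from 137745969 to 137768453. Its 35 interactions gave it rank 638, and 3.31% of coding genes had at least as many. Among the 7540 genes of similar span the median was 4, and 1.56% had at least as many; per bin it had 8.75, at rank 438, close to Tsc22d1 by that measure. Of the 35, 34 went to lower coordinates (97.1%, exact 95% interval 85.1 to 99.9%), at 60 to 270 kb. The interval takes interactions of neighbouring bins as independent, which they are not, so it is too narrow. The bins of the gene were evenly used: in order of position they had 8, 7, 10 and 10 interactions.

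Every bin of Tsc22d4 was joined to much the same partners. Its lower partners were 11 bins between 137500001 and 137690000, and of the 44 possible pairs of these with the 4 bins of the gene, 34 were listed (77.3%). All 11 were joined to at least 2 bins of Tsc22d4 and 3 to all 4. In contrast, 36 of the 62 partners of Tsc22d1 were joined to a single bin of that gene. This region is dense in genes: 46 coding genes lay within 500 kb of Tsc22d4, against 5 for Tsc22d1 and 6 for Tsc22d2, and other coding genes ended in 10 of its 12 partner bins.

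The partners of Tsc22d4 held ends of 13 coding genes. Agfg2, which encodes a protein with an ArfGAP domain, was the nearest at 60 kb, with 11 interactions between its end bins and Tsc22d4. Gigyf1, a gene of translational repression, had 9, as had Lrch4, and Sap25, whose protein binds the Sin3 co-repressor, had 7. Gnb2, a G-protein beta subunit, and Irs3, an insulin receptor substrate, had 4 each. Agfg2, Gigyf1, Lrch4, Sap25, Gnb2 and Irs3 were each joined to all 4 bins of Tsc22d4. Pop7, a subunit of RNase P, Mospd3 and Pcolce, an enhancer of procollagen processing, had 3 each and Fbxo24 had 2. Since a bin often held several of these ends, the counts overlap and do not separate the genes.

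The 1 interaction of Tsc22d4 to higher coordinates reached 400 kb, to a bin with ends of Mcm7, a subunit of the replicative helicase, of Ap4m1, an adaptor subunit, and of Taf6, a TFIID subunit. It came from the bin from 137770001 to 137780000, which starts 1548 bases past the gene end and counts only through the window. That bin also held an end of Ppp1r35 and of Mepce, and the lowest bin of Tsc22d4 held an end of Nyap1, an adaptor of PI3 kinase in neurons. Each of these genes has 1 bin in common with Tsc22d4, so the interactions of that bin count for both genes by construction. Through it Ppp1r35 and Mepce each had 10 of the 12 partner bins of Tsc22d4, and Nyap1 had 8. Without the 2 shared bins Tsc22d4 had 17 interactions and no higher partner, and without a window 25. The bins just outside the rule had 5 on the lower side and 17 on the higher side.

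**Figure D3:**
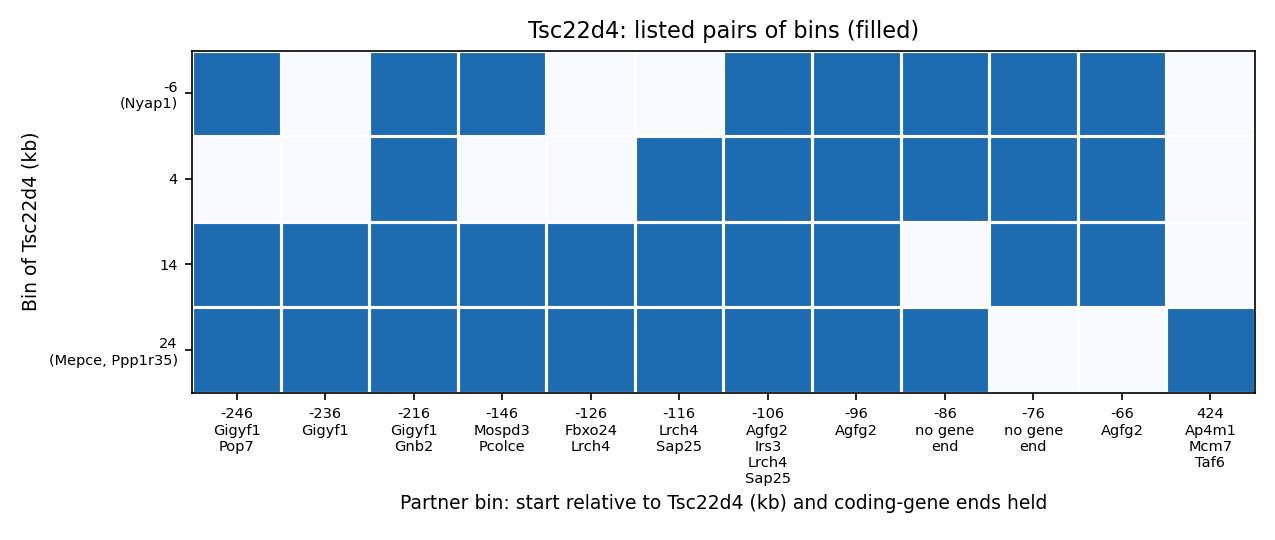
Filled cells are listed pairs between the 4 bins of Tsc22d4 (rows) and its 12 partner bins (columns), each labelled with its start relative to the lowest coordinate of the gene in kb and the other coding-gene ends that it holds. Of the 44 cells left of the last column 34 are filled, and the last column, at Mcm7, has 1.

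Tsc22d2 had fewer and more scattered interactions. It lies on chromosome 3 from 58414702 to 58466787. Its 16 interactions gave it rank 2469, and 13.1% of coding genes had at least as many; among 5819 genes of similar span the median was 5, and 17.3% had at least as many. Nearly all came from its lowest bins: the bin from 58410001, which holds the low-coordinate end, and the next bin, from 58420001, had 7 each, the bins from 58440001 and from 58450001 had 1 each, and the other 2, including that of the high-coordinate end, had 0. Partners lay on both sides, 10 interactions lower and 6 higher, at 70 to 570 kb. No bin of Tsc22d2 counted through the window alone, and the bins just outside had 5 on the lower side and 0 on the higher side.

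On the higher side Tsc22d2 was joined to other genes at each of its farther partners. Its lowest bin and the next were both joined to the bin that holds the starts of Serp1, which encodes a stress-associated protein of the endoplasmic reticulum, and Eif2a, an initiation factor, at 100 and 110 kb. Both were also joined to the bin of an end of Siah2, a ubiquitin ligase gene, at 270 and 280 kb. On the lower side, 4 bins of Tsc22d2 were joined to the bin from 58160001 to 58170000, which holds a start of the lncRNA gene 1700007F19Rik. The farthest interaction, at 570 kb, ended at Pfn2, an actin-binding profilin. Wwtr1, which encodes the YAP relative TAZ, lies 839 kb from Tsc22d2 and was not joined to it; the 2 genes shared 0 partner bins.

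**Figure D4:**
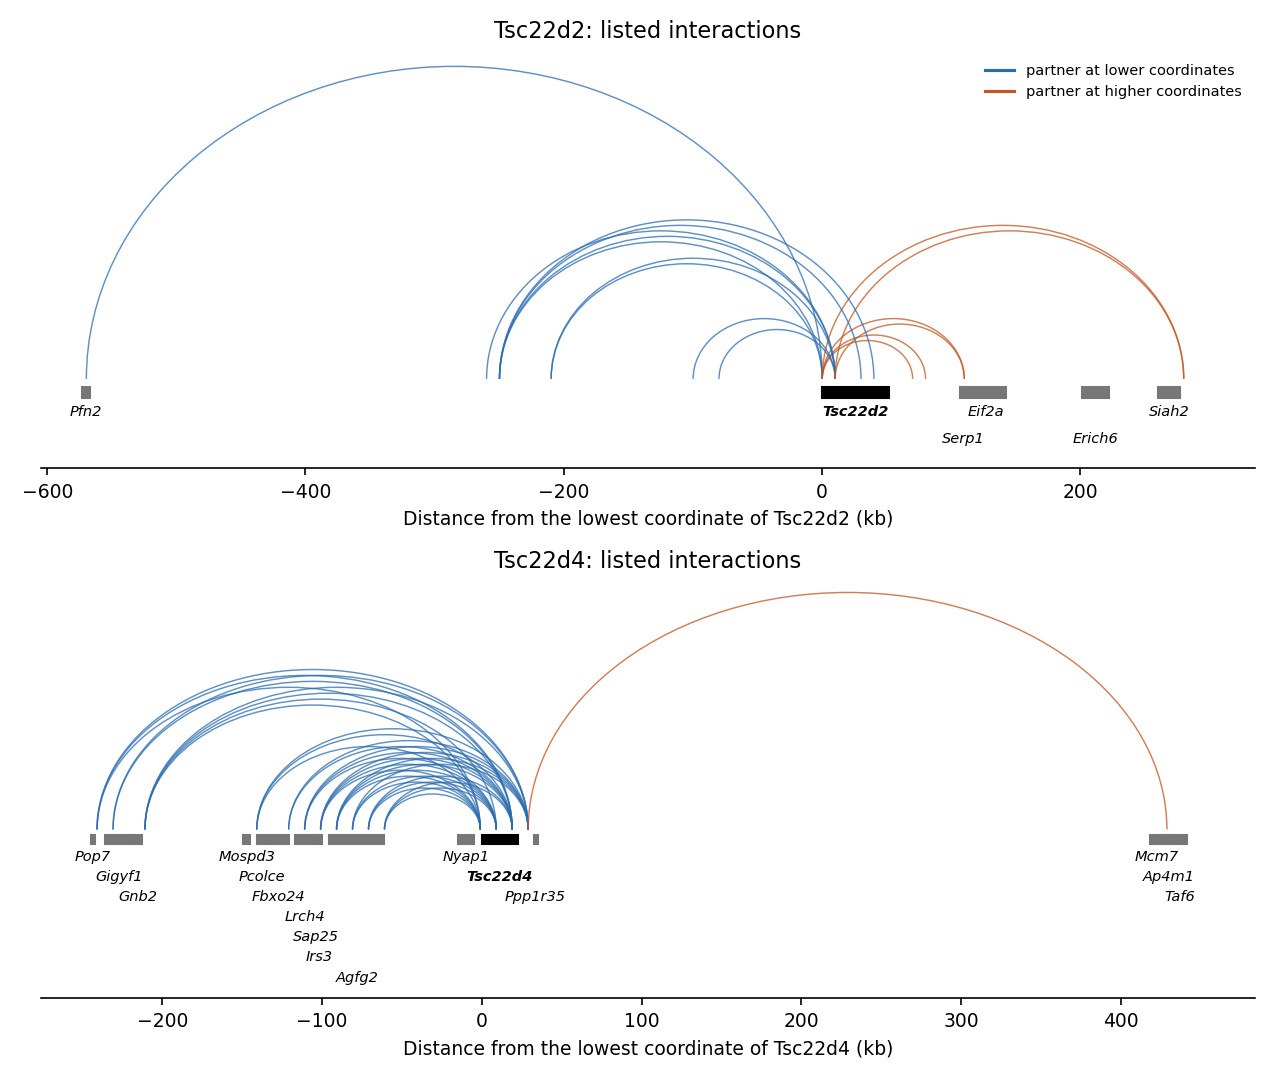
Arcs join the bins of Tsc22d2 (top) and Tsc22d4 (bottom) to their partner bins, with the distance from the lowest coordinate of the gene in kb on the horizontal axis and colours for the side of the partner; grey boxes are other coding genes. Tsc22d2 has 10 arcs to the left and 6 to the right, and Tsc22d4 has 34 to the left and 1 to the right.

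Tsc22d1 and Tsc22d2 lie in segments with related neighbours, which allows their contacts to be set side by side. Serp2, Siah3 and Erich6b lie near Tsc22d1, and their relatives Serp1, Siah2 and Erich6 lie near Tsc22d2. Serp1 and Siah2 each had 2 interactions with Tsc22d2, whereas neither Serp2 nor Siah3 had any with Tsc22d1. The distances differ: Siah2 lies 208 kb from Tsc22d2, but Siah3 lies 889 kb from Tsc22d1. Siah3 had 0 interactions at all, as had Erich6 and Erich6b, against 7 at Siah2. Serp2 lies 25 kb from the end of Tsc22d1 and farther from its other bins, while Serp1 lies 55.2 kb from Tsc22d2. Both gaps are above the shortest listed distance of 20 kb.

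The 3 genes also differed in distance. Of the interactions of Tsc22d1, 55.6% spanned 300 kb or more, against 26.1% of the whole list, 6.25% at Tsc22d2 and 2.86% at Tsc22d4. Under 100 kb the order was the opposite, with 25.7% at Tsc22d4, 18.8% at Tsc22d2 and 0.926% (1 interaction) at Tsc22d1, against 22.4% of the whole list. The medians were 310, 235 and 130 kb for Tsc22d1, Tsc22d2 and Tsc22d4. Interactions of neighbouring bins are not independent, and no test was made between the genes.

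Adjacent interactions may be parts of 1 contact. When interactions within 1 bin of each other at both anchors were merged, Tsc22d1 had 15 contacts, Tsc22d2 had 9 and Tsc22d4 had 7, so that Tsc22d2 came before Tsc22d4. The median over all coding genes was 2. The long stretch of Tsc22d1 counts as few contacts by this measure, and the scattered partners of Tsc22d2 as many.

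**Figure D5:**
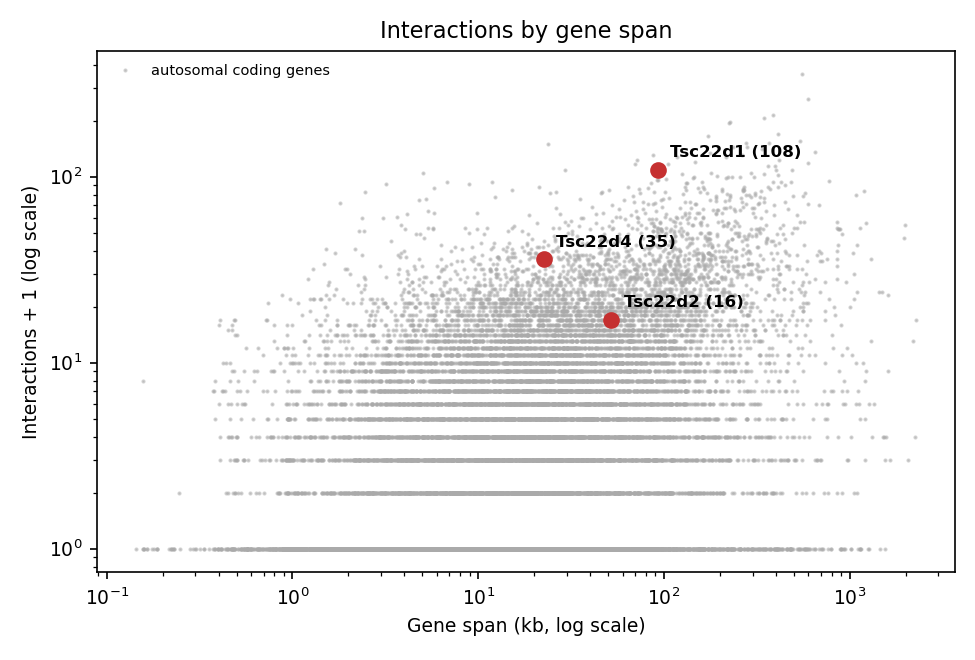
Each grey point is an autosomal coding gene, with its span in kb on a log horizontal axis and its number of listed interactions plus 1 on a log vertical axis; the 3 red points are the Tsc22 domain genes with their counts. Tsc22d1 lies near the upper edge for its span, Tsc22d4 in the upper part, and Tsc22d2 nearer the middle of the genes with interactions.

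By the count of interactions in each class of side and distance, the genes most like Tsc22d1 were Pik3r1, a regulatory subunit of PI3 kinase with 129 interactions, Btg1, an antiproliferative gene with 86, and Zeb1, a repressor gene with 65 (Euclidean distances of 1.83, 2.11 and 2.17 over 9 classes on a log2(count + 1) scale). Those most like Tsc22d4 were Notch2 and Srp54a, with 35 each and all of them lower, and Gatd3a with 29 (distances of at most 1.04). Those most like Tsc22d2 were Dnajc27 with 13, Tbc1d31 with 20 and Naa38 with 22 (0.689 to 0.913).

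Genes of the pathways in which the family is known to act were counted in the same way. Of the NRBP and WNK group, 8 of 9 genes could be scored and all 8 had an interaction, with a median of 6, against 67.8% and a median of 3 over all coding genes. The kinase genes Wnk1, Wnk4 and Wnk2 had 47, 3 and 1, the cotransporter gene Slc12a2 had 14 and the kinase genes Oxsr1 and Stk39, which act below WNK, had 8 and 5. Nrbp1, the partner of the long family proteins, had 2, in bins shared with ends of 3 other genes, and Nrbp2 had 7. All 9 TGF-beta genes were touched, and their median was 27 interactions. The receptor genes Tgfbr2 and Tgfbr1 had 70 and 26, the ligand genes Tgfb2, Tgfb3 and Tgfb1 had 50, 27 and 3, the effector genes Smad3, Smad4 and Smad2 had 43, 17 and 5, and the inhibitory Smad7 had 36.

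In the group of glucocorticoid and FoxO genes, all 6 that could be scored had an interaction, with a median of 49.5. Over all coding genes 67.8% had an interaction and the median was 3. The kinase gene Sgk1 had 127, the factor genes Foxo1 and Foxo3 had 70 and 55, the receptor gene Nr3c1 had 44, and the target genes Fkbp5 and Per1 had 29 and 5. Many of these genes span several bins, and no comparison with genes of similar span was made for the groups. After merging, the medians of the 3 groups were 3, 4 and 10, against 2 over all coding genes. None of the genes of these groups had an end in a partner bin of Tsc22d1, Tsc22d2 or Tsc22d4. Listed interactions stay within 1 chromosome and 1000 kb, and only Nrbp1 and Foxo1 share a chromosome with a member. For the other genes no such contact could be listed, and sharing a chromosome does not place a gene within 1000 kb. Nothing is therefore drawn from this result for any gene of the groups.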

How the data were processed

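The deposited file was 1 list of anchor positions; per the file header it holds the chromosome, start and end of both anchors and no other value. Per the submitters' processing notes, BWA and mm10 were used; of the interaction caller, its threshold and any pooling, nothing is given in the sources used here. Gene positions, promoter windows and sequences came from RefSeq (GRCm38.p6). Positions are 1-based. For each of 20665 autosomal protein-coding genes, interactions with a bin overlapping the gene body or 2.5 kb around its ends were counted with Python 3.11.15 and pandas 2.3.3, after a check on simulated lists. A partner bin held another gene if it overlapped 2.5 kb around an end of that gene. Distances are between bin starts.

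The members and gene lists were chosen with earlier results of these data known. The genes named are the members, genes with ends in their bins or partner bins, the 3 genes with the nearest profile, and list and marker genes; Serp2, Siah3, Erich6, Erich6b, Wwtr1, Enox1 and the genes with distant starts were chosen after their values were seen. Alternatives were windows of 0 and 5 kb, gene ends only, the bin midpoint and merging of adjacent interactions; leaving out shared bins and taking start bins only were added after seeing the data. Intervals are exact (Clopper-Pearson, 95%) and cover counting error only. They take each interaction as independent and so are too narrow where neighbouring bins share a contact.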

Additional observations from a re-analysis of the deposited data

How the results depend on the processing

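No paired analysis was possible because values by library are missing from the list; for the same reason no replicate could be left out, and without a score no stricter threshold could be applied. Of 91 values under an alternative, 72 stayed within 1.5 times the reported value and 19 did not. Merging adjacent interactions gave 15, 9 and 7 contacts at Tsc22d1, Tsc22d2 and Tsc22d4, 8 stretches of partner bins at Tsc22d1 and 5 at Tsc22d4, and list medians of 3 (NRBP and WNK), 4 (TGF-beta) and 10 (glucocorticoid and FoxO). With the gene ends only, which drops bins inside a gene by construction, Tsc22d2 had 7 interactions, those to lower coordinates were 16 at Tsc22d1 and 3 at Tsc22d2, and the NRBP and WNK and the glucocorticoid and FoxO medians were 3.5 and 26. With the bin midpoint, coding genes at partner bins were 2 for Tsc22d2 and 6 for Tsc22d4. The reach of Tsc22d4 was 260 kb with the midpoint or a window of 0 kb, since both leave out the bin joined to Mcm7. Tsc22d4 had 17 interactions without its bins at other gene ends, and Tsc22d1 had 61 in the bins of its annotated starts. Depth is unknown, so an interaction that is not listed was not detected and is not shown to be absent.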
